A study of Homo sapiens with 12 samples.

Results

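Cultures that received interleukin 1 beta (IL1β) together with tumour necrosis factor alpha (TNFα) were compared with cultures that received TNFα alone, to describe what IL1β adds or removes in cells already exposed to TNFα. The 6 arrays of these 2 groups, 3 labelled TNF+IL1 and 3 labelled TNF, were chosen by their labels from 12 arrays in 4 groups. The cells were T-HESC, stromal cells of human endometrium that carry telomerase so that they grow without limit and are catalogued as ATCC CRL-4003, kept without serum for 24 h and then treated for 48 h. The TNF group received TNFα at 5 ng/ml, and the TNF+IL1 group received TNFα at 5 ng/ml and IL1β at 1 ng/ml. The other groups were the vehicle cultures, which had no cytokine, and the IL1 cultures, which had IL1β alone at 1 ng/ml. All 4 groups share the starvation medium, which contained puromycin, and the single line, so they speak for 1 line of cultured stroma and not for endometrium. Replicates 1, 2 and 3 of every group were passages 13, 28 and 15 of the line, so p-values measure the spread between passages of 1 line and not between people.

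Both cytokines are released by activated macrophages in inflamed tissue, and both are studied in endometriosis, where endometrial stroma grows outside the uterus. IL1β signals through its receptor, the adaptor MyD88 and kinases of the IRAK family, whereas TNFα signals through TNF receptors and adaptors such as TRADD, and both routes end in the transcription factor NF-kB and in AP-1. NF-kB target genes include chemokines, IL6 and its own inhibitors. Endometrial stromal cells answer such signals with chemokines that draw neutrophils and monocytes, with prostaglandin synthesis and with matrix proteases.

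Values are log2 intensities on a scale on which 0 lies close to the median probe of an array, and each value below is given for replicates 1, 2 and 3 in that order. Between 52944 and 53507 of 54359 probes per array had a positive signal, and the number of arrays, 3 per group, limits the precision. The TNF+IL1 arrays were closer to each other than the TNF arrays, with Spearman correlations of 0.983 to 0.985 against 0.962 to 0.976 and a median SD per gene of 0.141 against 0.299. TNF replicate 3 lay apart on the first principal component (score 68.7, against -29.3 and -18.2 for the other TNF arrays and -29.6 to -21.3 for the TNF+IL1 arrays). Outside the comparison, vehicle replicates 1 and 3 (-84.9 and 171.1) and IL1 replicate 2 (53.0) lay apart. All 16 measured stromal markers had a signal above that of the median probe, and their summed intensity was 1127 to 1655 with TNF and 1377 to 1501 with TNF+IL1. Leukocyte markers (6 of 21 above the median probe) summed to 47.5 to 55.3 and 44.8 to 47.3, epithelial markers (5 of 12) to 28.4 to 32.8 and 24.6 to 27.8, and endothelial markers (2 of 10) to 19.8 to 22.7 and 18.6 to 19.7, so each of these 3 sums was lower on every TNF+IL1 array as deposited. The leukocyte marker PTPRC and the epithelial marker EPCAM lay below the median probe on each of the 6 arrays with a value. The epithelial marker ESRP1 (3.81 to 4.38) and the endothelial marker PECAM1 (3.39 to 3.71) lay well above it on all 6. Single members did not all follow these sums. Of 21 leukocyte markers 4 were higher on every TNF+IL1 array than on any TNF array, and 3 were lower on every one. These are 19.05% and 14.29%, beside 5.93% and 17.8% of all genes. Of 10 epithelial markers with all values 1 was higher in this sense, ELF3 (0.96), and 3 were lower (10% and 30%). Of 10 endothelial markers 0 were higher and 0 lower. No marker list's part in the differences below was tested.

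The clearest differences with IL1β on top of TNFα included higher signals of neutrophil chemokines such as CXCL2 (4.93 on the log2 scale) and of IL6 (2.25). They also included higher signals of the signalling genes GNA15 (2.92, from TNF values below the median probe) and DCLK3 (2.63). Signals of cell-cycle genes were lower (median -0.42 over 49 measured). None of these genes passed the test, and 0 of 18106 genes did. The difference of each probe was tested with limma on all 12 arrays, adjusted by the Benjamini-Hochberg method over 53671 probes, and called at an adjusted p under 0.05. That called 1 probe, 0.00186% of those tested, and this probe has no gene in the table used. It gave -1.37, -1.40 and -2.30 with TNF and 1.83, 2.87 and 2.43 with TNF+IL1, a rise of 4.07 ± 0.39 (SE, n = 3 per group, adjusted p = 0.0494). Each SE given here comes from the limma fit. It uses the spread within groups over all 12 arrays, moderated across probes, and not that of the TNF and TNF+IL1 arrays alone. At an unadjusted p under 0.05 there were 2729 probes, and among 18106 genes, each read from its brightest single-gene probe, 326 higher and 636 lower. The call was not kept when any 1 of the 6 arrays was left out, which gave 0 called probes each time with 1891 to 2412 at an unadjusted p under 0.05, nor with the passage as a block, which gave 0 with 2592. When arrays were weighted by their quality, limma called 45 probes, 27 higher and 18 lower, which represent 19 genes. The lowest weights fell on vehicle replicates 3 and 1 (0.188 and 0.337) and IL1 replicate 2 (0.498). These arrays enter only through the shared spread. Within the comparison, TNF replicates 1, 2 and 3 had 1.79, 1.16 and 0.534, and the TNF+IL1 arrays 1.72 to 2.41. Which weights the 45 calls rest on was not tested.

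A second description counts genes whose 3 TNF+IL1 values all lie above, or all below, the 3 TNF values. Of 17527 genes with a value on all 6 arrays, 1039 (5.93%) were higher in this sense and 3127 (17.8%) lower. This split moves with the scaling, because after quantile normalization 1528 (8.72%) were higher and 1833 (10.5%) lower. The share of higher genes among the separated ones thus went from 24.9% to 45.5%. The median difference of all genes was -0.073 as deposited, and 0.0019 over the genes on all 6 arrays after quantile normalization. Separated by at least 1 log2 unit, that is 2-fold, were 209 genes higher and 192 lower, of which 77 and 47 were brighter than the median probe in their higher group. The named genes below are the 12 of lowest p in each direction among those 77 and 47, together with members of the lists, and none of them passed in the fit with equal weights, so their values are given as differences and not as changes.

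Chemokines that attract neutrophils showed the largest difference. CXCL2, a ligand of the neutrophil receptor CXCR2, read 2.99, -0.014 and 2.32 with TNF and 6.47, 6.86 and 6.73 with TNF+IL1. Every TNF+IL1 array lay far above every TNF array, and the TNF values themselves were spread widely, with replicate 2 low. The difference was 4.93 ± 0.71 (SE), or 30.4-fold, with an adjusted p of 0.251 and of 0.0362 with array quality weights. With IL1β alone against vehicle, a comparison that shares no arrays with this one, the CXCL2 difference was 5.38 ± 0.71, and the difference between the 2 was -0.46 ± 1.00 (adjusted p = 1). CXCL3, a close relative encoded nearby, read 3.72, 3.07 and 2.85 with TNF and 4.70, 5.09 and 5.17 with TNF+IL1, a difference of 1.77 ± 0.40 (adjusted p = 0.578), and without overlap. CXCL2 and CXCL3 have very similar transcripts, and cross-hybridisation between their probes was not tested.

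The promoters of CXCL2, CXCL3 and IL6 were picked as examples. These genes were all higher on every TNF+IL1 array and their windows hold a match to an NF-kB motif. Other named genes met both conditions and are not shown, among them TNFAIP3, NFKBIZ and ELF3. The motif searched was GGG, then any 2 bases, then TTTCC, on both strands and with no other motif, in 250 bases before to 50 after the start of each gene in the RefSeq promoter table (GRCh38.p14). Of 105 named genes 77 had a window in that table. The 150 bases that end just before the start site follow, 5′ to 3′ on the strand of the gene, with the motif in capitals. CXCL2 lies on the minus strand at chr4:74099196-74099345, CXCL3 on the minus strand at chr4:74038690-74038839 and IL6 on the plus strand at chr7:22727050-22727199.
CXCL2: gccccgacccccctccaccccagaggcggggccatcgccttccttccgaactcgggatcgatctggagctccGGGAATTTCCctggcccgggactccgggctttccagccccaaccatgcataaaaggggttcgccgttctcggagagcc
CXCL3: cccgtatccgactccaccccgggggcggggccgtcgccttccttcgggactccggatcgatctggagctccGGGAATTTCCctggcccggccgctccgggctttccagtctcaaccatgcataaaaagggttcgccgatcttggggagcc
IL6: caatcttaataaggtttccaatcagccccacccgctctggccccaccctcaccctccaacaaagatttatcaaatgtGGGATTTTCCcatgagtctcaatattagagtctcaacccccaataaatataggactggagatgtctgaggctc
The motif starts 78 bases before the start site in CXCL2, 79 in CXCL3 and 73 in IL6. It occurred in 671 of 35116 windows in the table (1.91%) and, with 1 window per gene, in 287 of 14273 windows of tested genes (2.01%). Among the 12 higher genes of lowest p 2 of 8 windows held it, and 1 of 9 among the 12 lower genes. Of the 6 measured neutrophil chemokine genes with a window 4 held it, and CXCL8 did not. STAP2 and IL32, both lower on every TNF+IL1 array, held it as well. A match is a description of the letters and not of binding.

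In the list of neutrophil chemokines, 3 of 6 members with all values were higher without overlap (against 5.93% of all genes) and 0 lower. The third was CXCL5, at -2.22, -3.26 and -1.65 with TNF and -0.87, -0.13 and 0.22 with TNF+IL1, a dim probe, with a TNF mean below the median probe of the array. The median difference of the 7 measured members was 1.77, against -0.073 for all genes, and ran from 1.40 to 2.02 when 1 array was left out. CXCL8, interleukin 8, overlapped. It read 9.20, 6.82 and 9.49 with TNF and 9.36, 9.48 and 9.33 with TNF+IL1, so 2 of the TNF arrays already lay within the range of, or close to, the TNF+IL1 arrays and replicate 2 was low. Without TNFα the CXCL8 difference with IL1β was 4.59 ± 0.57, against 0.88 ± 0.57 with it, and the difference of the 2 did not pass (-3.70 ± 0.80, adjusted p = 0.914).

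Chemokines for mononuclear cells had 3 of 20 higher and 3 lower without overlap (15% each, beside 5.93% and 17.8% of all genes) and a median of 0.012. After quantile normalization 5 were higher and 1 lower, beside 8.72% and 10.5% of all genes. CCL7, a monocyte attractant, read 4.47, 2.58 and 3.90 with TNF and 6.17, 5.17 and 5.95 with TNF+IL1, a difference of 2.12 ± 0.48 (adjusted p = 0.599). CCL8, another ligand of monocyte receptors, read -2.23, -2.79 and -1.04 with TNF against 1.91, 0.24 and 1.23 with TNF+IL1, a difference of 3.14 ± 0.73 (adjusted p = 0.625). Both were higher on all 3 TNF+IL1 arrays, CCL8 from below the median probe. CCL2, the main monocyte attractant, gave 4.87, 4.12 and 4.90 with TNF and 4.13, 4.74 and 4.65 with TNF+IL1, so the groups overlapped at -0.12 ± 0.38, a sign that turned after quantile normalization (0.054) and without TNF replicate 3 (0.014) or TNF+IL1 replicate 1 (0.065). IL1β alone gave 2.68 ± 0.38 for CCL2, and the difference between the 2 settings was -2.80 ± 0.54 (adjusted p = 0.843). CCL5, which attracts T cells, read 7.02, 4.92 and 7.10 with TNF and 5.49, 5.55 and 6.06 with TNF+IL1, and again TNF replicate 2 was the low array.

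**Figure D1:**
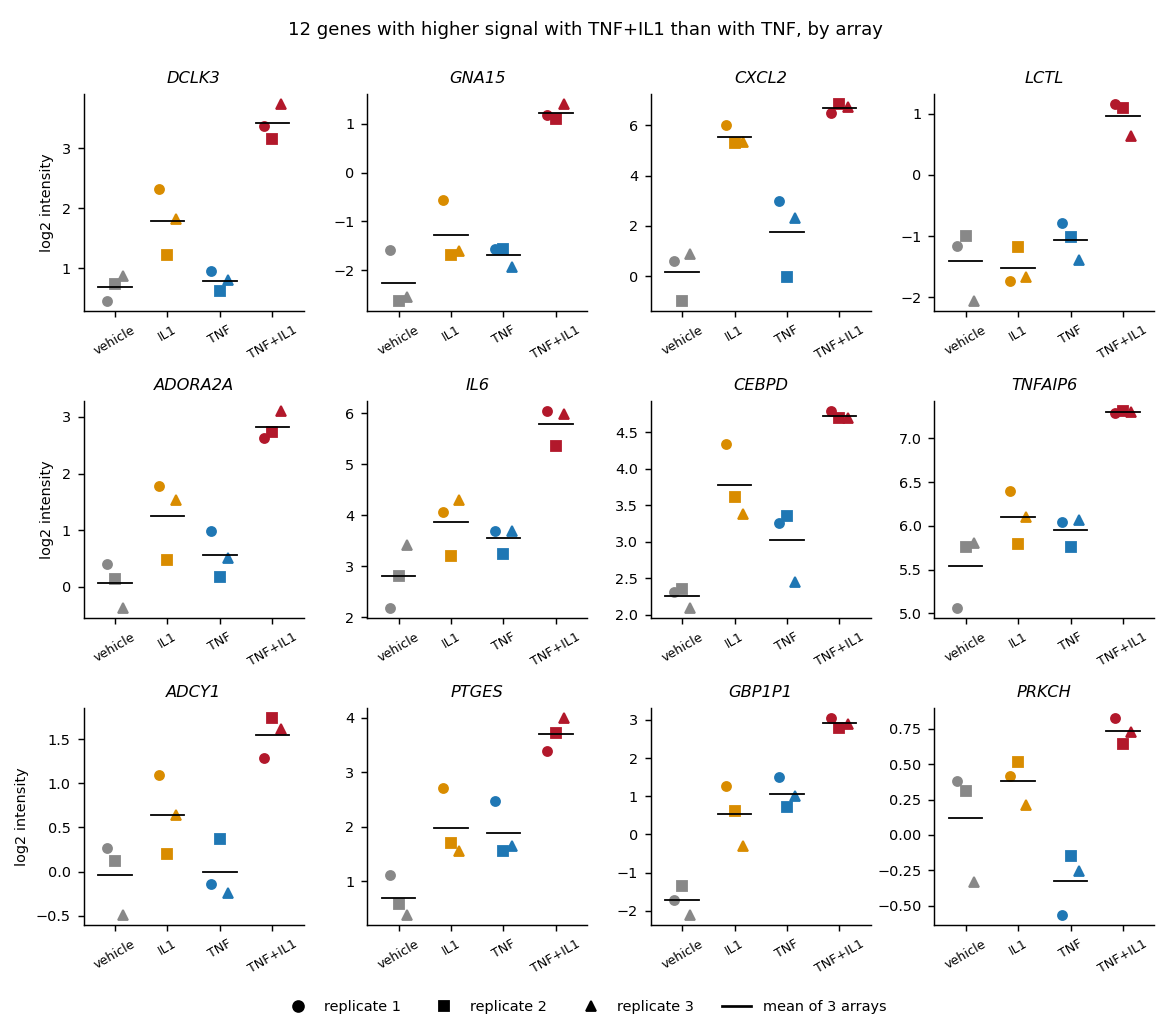
Log2 intensity of the 12 higher genes of lowest p on each of the 12 arrays, by group on the horizontal axis, with marker shape for the replicate and a bar at the mean of 3 arrays. On all 12 genes the 3 TNF+IL1 points lie above the 3 TNF points; for CXCL2 the TNF points run from -0.014 to 2.99 and the TNF+IL1 points from 6.47 to 6.86.

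The next list holds the IL6 family and other interleukins. IL6, which drives acute-phase and B cell responses, read 3.70, 3.24 and 3.70 with TNF and 6.06, 5.36 and 5.99 with TNF+IL1. The groups were clearly separated, and the difference of 2.25 ± 0.38 (4.77-fold) had an adjusted p of 0.37, or 0.0362 with array quality weights. With IL1β alone the IL6 difference was 1.06 ± 0.38, and the difference of the 2 was 1.20 ± 0.53 (adjusted p = 1). In the list of 25 IL6 family members and other interleukins, 9 were higher and 3 lower without overlap (36% and 12%, beside 5.93% and 17.8% of all genes), the median was 0.38, and it ran from 0.17 (without TNF replicate 2) to 0.56. IL11, which is raised in decidualizing stroma, read 1.85, 1.26 and 1.58 with TNF and 2.34, 3.50 and 3.28 with TNF+IL1. IL13RA2, a decoy receptor for IL13, read -1.85, -1.73 and -1.42 with TNF against -1.28, 0.13 and 0.043 with TNF+IL1. Both were higher on every TNF+IL1 array. IL32, a cytokine that induces others, was among the 3 lower, at 7.58, 7.59 and 7.62 with TNF and 6.97, 6.90 and 6.66 with TNF+IL1, 2 tight groups with a difference of -0.75 ± 0.33 (adjusted p = 0.979). IL1β alone gave 1.75 ± 0.33 for IL32, so the differences had opposite signs, yet the test of their difference did not pass (-2.50 ± 0.46, adjusted p = 0.843). IL33, an alarmin of the IL1 family, read 4.67, 3.93 and 3.79 with TNF against 4.05, 4.97 and 5.40 with TNF+IL1 and overlapped, against 3.49 ± 0.59 with IL1β alone.

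Most ligands and receptors of the IL1 and TNF pathways overlapped between the groups. IL1B, IL1RN, IL1R1 and CXCL1 had no single-gene probe among those tested and are not named. IL1A read -1.21, -2.02 and -0.82 with TNF and -0.72, -0.68 and 0.17 with TNF+IL1, all but 1 value below the median probe. The decoy receptor IL1R2 read 2.58, 2.47 and 2.86 with TNF against 2.33, 2.44 and 2.86 with TNF+IL1, and the co-receptor IL1RAP -0.60, -1.73 and -1.01 with TNF against -1.63, -1.43 and -1.09 with TNF+IL1, so both overlapped. IRAK3, the inhibitory member of the IRAK kinases, was higher without overlap, at -2.75, -2.05 and -3.06 with TNF and -1.23, -0.62 and -0.49 with TNF+IL1, on a dim probe whose second probe overlapped. The TNF transcript read 2.70, 2.78 and 2.69 with TNF against 2.82, 2.82 and 2.70 with TNF+IL1 and its receptor TNFRSF1A 2.75, 2.63 and 1.17 with TNF against 2.57, 2.49 and 2.73 with TNF+IL1. Across the lists, 3 of 17 IL1 family genes were higher and 3 lower, 1 and 3 of 17 in IL1 receptor signalling, and 1 and 2 of 17 in TNF signalling, beside 5.93% and 17.8% of all genes.

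NF-kB feedback and response genes were higher in 6 of 15 cases and lower in 1 (40% and 6.67%, beside 5.93% and 17.8% of all genes). After quantile normalization 8 were higher and 0 lower, beside 8.72% and 10.5% of all genes. The list's median was 0.41 and ran from 0.16 (without TNF replicate 2) to 0.53. TNFAIP6, a secreted hyaluronan-binding protein, read 6.04, 5.76 and 6.07 with TNF and 7.28, 7.32 and 7.30 with TNF+IL1. Its TNF+IL1 values lay closer together than its TNF values, and the difference was 1.35 ± 0.24 (adjusted p = 0.415, or 0.0203 with array quality weights). ZC3H12A, a ribonuclease that degrades cytokine messages, read 3.48, 3.13 and 3.18 with TNF against 4.29, 4.62 and 4.60 with TNF+IL1, a difference of 1.24 ± 0.26, and IL1β alone gave nearly the same, 1.30 ± 0.26. TNFAIP3, the ubiquitin-editing inhibitor A20, read 3.19, 1.59 and 1.98 with TNF and 3.35, 3.28 and 3.35 with TNF+IL1, with TNF replicate 1 close to the TNF+IL1 values. TNFAIP2 read 2.28, 1.41 and 0.69 with TNF against 3.44, 3.92 and 3.78 with TNF+IL1, a difference of 2.25, with TNF replicate 3 the lowest. Each of these feedback genes was higher on every TNF+IL1 array. MAP3K8, the kinase Tpl2 that leads to ERK, read 1.61, 0.78 and 0.69 with TNF against 2.65, 2.55 and 2.88 with TNF+IL1, a difference of 1.67 ± 0.37, although a dimmer second probe overlapped. Among subunits and inhibitors of NF-kB, 3 of 14 were higher and 1 lower (21.4% and 7.14%), with NFKBIZ at 4.69, 3.92 and 4.46 with TNF against 5.09, 5.45 and 5.50 with TNF+IL1 and NFKB2 at 1.63, 1.11 and 0.15 with TNF against 1.96, 2.18 and 2.05 with TNF+IL1.

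SOD2, the mitochondrial superoxide dismutase, is counted with the feedback genes. It read 6.18, 5.57 and 6.47 with TNF and 6.83, 7.02 and 6.82 with TNF+IL1, a difference of 0.82 ± 0.29 (adjusted p = 0.951), while a dimmer second probe gave 0.13 and overlapped. IL1β alone gave 3.49 ± 0.29, and the difference of the 2 was -2.67 ± 0.41 (adjusted p = 0.843). HSD11B1, which regenerates cortisol from cortisone, read 5.65, 4.43 and 5.52 with TNF against 6.30, 6.72 and 6.76 with TNF+IL1, a difference of 1.40 ± 0.47 (adjusted p = 0.951), and its second probe gave 1.45, also without overlap. IL1β alone gave 4.87 ± 0.47 for HSD11B1, and the difference between the settings was -3.48 ± 0.67 (adjusted p = 0.843). COXFA4L3, whose product resembles part of cytochrome c oxidase, read 3.27, 1.19 and 4.25 with TNF and 4.71, 5.15 and 5.29 with TNF+IL1. For all 3 genes the difference with IL1β was numerically smaller in the presence of TNFα, and 0 of 53671 probes passed the test of that difference, with 1927 at an unadjusted p under 0.05.

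**Figure D2:**
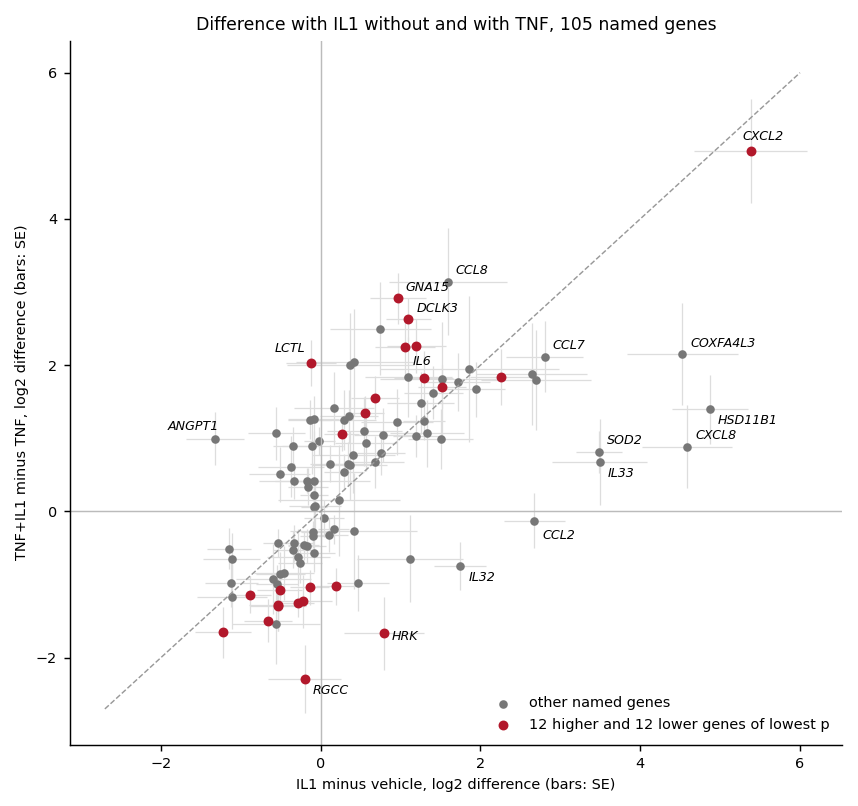
Log2 difference with IL1β in the presence of TNFα (vertical axis, TNF+IL1 minus TNF) against that without TNFα (horizontal axis, IL1 minus vehicle) for the 105 named genes, with SE bars and a dashed line of equality. CXCL2 lies near the line, CXCL8, HSD11B1, SOD2 and CCL2 lie far below it and LCTL, GNA15 and DCLK3 above it, and 0 of these departures passed the test.

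Signalling genes outside the cytokine lists held the lowest p-values. DCLK3, a doublecortin-like kinase, read 0.96, 0.61 and 0.81 with TNF and 3.37, 3.16 and 3.75 with TNF+IL1. The groups were tight and far apart, and the difference was 2.63 ± 0.28 (6.21-fold, adjusted p = 0.0771). Its p passed under 8 other settings, with an adjusted p of 0.00699 under array quality weights, and missed in the rest, with 0.124 with the passage as a block and 0.158 to 0.292 when 1 of the 6 arrays was left out, and a dimmer second probe gave -0.19 and overlapped. GNA15, a G protein alpha subunit, read -1.57, -1.56 and -1.93 with TNF against 1.18, 1.10 and 1.41 with TNF+IL1, a difference of 2.92 ± 0.35 (adjusted p = 0.11; 0.00762 with array quality weights). ADORA2A, a receptor for adenosine, read 0.99, 0.18 and 0.50 with TNF against 2.62, 2.73 and 3.11 with TNF+IL1 (adjusted p = 0.324). LCTL, a klotho-related glycosidase-like protein, read -0.79, -1.01 and -1.40 with TNF and 1.17, 1.09 and 0.65 with TNF+IL1, a difference of 2.03 ± 0.31. All TNF values of GNA15 and LCTL lay below the median probe. IL1β alone gave -0.12 ± 0.31 for LCTL, and the difference of the 2 was 2.15 ± 0.44 (adjusted p = 0.843). ADCY1, an adenylate cyclase, and PRKCH, a protein kinase C, were also separated (1.56 and 1.06), while second probes of both overlapped.

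A comparison with vehicle shares the TNF+IL1 arrays with this one. There DCLK3 rose by 2.74 (limma adjusted p = 0.00547), GNA15 by 3.49 (adjusted p = 0.00542) and LCTL by 2.38 (adjusted p = 0.0169). ADORA2A also passed (2.76, adjusted p = 0.0177), whereas ADCY1 (1.58, adjusted p = 0.0802) and PRKCH (0.62, adjusted p = 0.292) did not. In total 133 of 53671 probes passed against vehicle. The genes were chosen for high values on these same TNF+IL1 arrays, so these p-values add no independent support. TNFα alone gave 0.11, 0.57 and 0.34 for DCLK3, GNA15 and LCTL, none of which passed.

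Among transcription factors, CEBPD, an acute-phase regulator, read 3.26, 3.36 and 2.45 with TNF and 4.80, 4.69 and 4.69 with TNF+IL1. ATF3, a stress-induced repressor, read 3.15, 2.96 and 3.03 with TNF against 4.06, 4.07 and 4.12 with TNF+IL1. Both were separated, by 1.71 and 1.04, and in the AP-1 and CEBP list 3 of 18 were higher and 1 lower (16.7% and 5.56%, beside 5.93% and 17.8% of all genes).

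Prostaglandin genes were led by PTGES, the synthase of prostaglandin E2, at 2.47, 1.55 and 1.65 with TNF and 3.40, 3.72 and 4.0 with TNF+IL1, a difference of 1.82 ± 0.37 (adjusted p = 0.506). The upstream enzyme PTGS2 stayed dim, at -1.33, -0.64 and -1.49 with TNF against -0.70, -0.71 and -0.44 with TNF+IL1, and overlapped. In that list 3 of 21 were higher (14.3%, beside 5.93% of all genes) and 0 lower, among them PTGFR, the receptor for prostaglandin F2 alpha (0.90). Among proteases, MMP3, stromelysin, read 4.64, 3.78 and 4.86 with TNF and 5.88, 6.43 and 6.61 with TNF+IL1, a difference of 1.88 ± 0.70 (adjusted p = 0.955). MMP1, interstitial collagenase, read 6.56, 5.07 and 6.46 with TNF against 6.31, 5.59 and 6.65 with TNF+IL1, and its groups overlapped. The protease and inhibitor list had 2 of 26 higher and 3 lower (7.69% and 11.5%, beside 5.93% and 17.8%). After quantile normalization 3 were higher and 0 lower, beside 8.72% and 10.5% of all genes. TIMP1, an inhibitor of these proteases, was among the lower as deposited (8.84, 8.59 and 8.84 with TNF against 8.06, 8.17 and 8.33 with TNF+IL1). Structural matrix genes had a median of 0.24 that turned to -0.18 without TNF replicate 3, and 2 of 30 were higher and 1 lower (6.67% and 3.33%, beside 5.93% and 17.8% of all genes). After quantile normalization their median was 0.47, with 7 higher and 0 lower, beside 8.72% and 10.5% of all genes.

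Growth factors and other secreted signals included KITLG, the ligand of the receptor KIT, at 3.61, 3.67 and 3.29 with TNF and 4.64, 5.07 and 4.61 with TNF+IL1, a difference of 1.26 ± 0.27, with a dimmer second probe of opposite sign. ANGPT1, a vessel-stabilising ligand, read 1.93, 1.99 and 2.27 with TNF against 3.19, 3.03 and 2.95 with TNF+IL1, against a difference of -1.32 ± 0.36 with IL1β alone, and the difference of the 2 was 2.31 ± 0.51 (adjusted p = 0.966). BDNF, a neurotrophin, read 2.85, 3.01 and 2.69 with TNF against 3.87, 3.56 and 3.79 with TNF+IL1. NAMPT, which makes the NAD precursor, read 3.08, 2.22 and 3.43 with TNF and 3.92, 4.87 and 4.81 with TNF+IL1. On these probes all of these genes were higher on every TNF+IL1 array, while a dimmer second NAMPT probe gave 0.65 and overlapped. MT1F, a metallothionein, read -2.86, -0.27 and -0.37 with TNF against 1.26, 1.64 and 1.09 with TNF+IL1 and MT1H differed by -1.43, but metallothioneins are near-identical copies and their probes may not tell them apart. Interferon-stimulated genes had 6 of 36 higher and 4 lower (16.7% and 11.1%, beside 5.93% and 17.8% of all genes). These counts became 10 and 0 after quantile normalization, beside 8.72% and 10.5% of all genes. EPSTI1 was among the higher, at 3.53, 2.90 and 3.81 with TNF against 4.43, 4.18 and 4.03 with TNF+IL1. GBP1P1, a guanylate-binding protein pseudogene close in sequence to GBP1, was 1.84 higher, or 0.63 on a dimmer second probe, against 0.34 for GBP1.

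**Figure D3:**
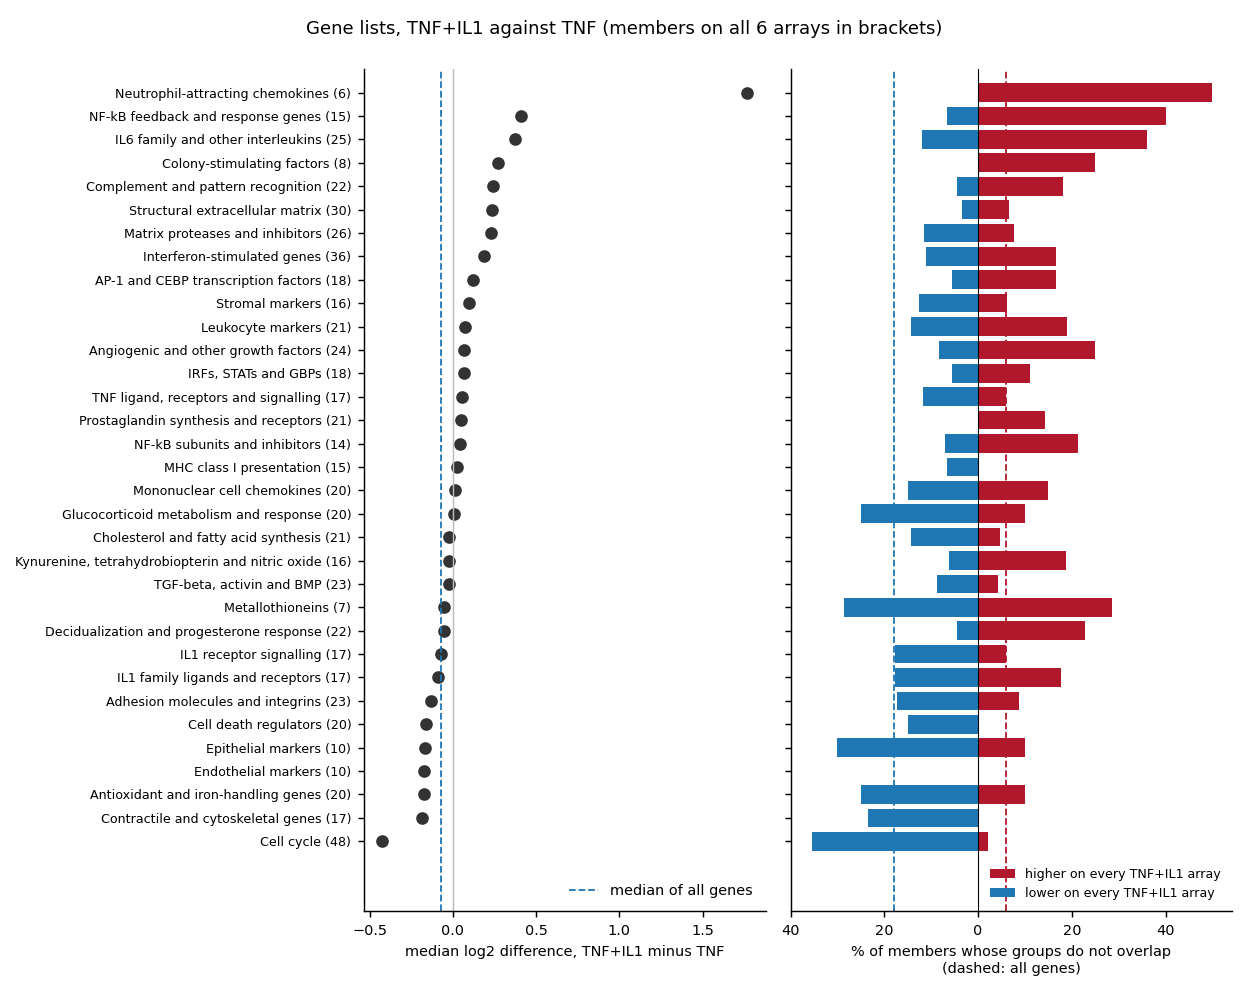
Median log2 difference (left) and share of members whose TNF and TNF+IL1 groups do not overlap (right, higher in red, lower in blue) for the 33 gene lists, with the same over all genes as dashed lines. Neutrophil chemokines stand at a median of 1.77 and cell-cycle genes at -0.42, and no member of any list was called.

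Lower with TNF+IL1 were a cell-cycle group and scattered signalling genes. Of 48 cell-cycle genes with all values 17 were lower (35.4%, beside 17.8% of all genes) and 1 higher, with a median of -0.42. After quantile normalization 14 were lower and 2 higher (beside 10.5% and 8.72% of all genes), with a median of -0.40. Leaving out 1 array gave medians of -0.52 to -0.44. UBE2C, a ubiquitin-conjugating enzyme of mitotic exit, read 3.63, 2.69 and 4.47 with TNF and 1.58, 1.17 and 2.65 with TNF+IL1. BIRC5, survivin, read 3.25, 2.35 and 3.82 with TNF against 1.55, 1.16 and 1.99 with TNF+IL1, and the mitotic cyclin CCNB2 2.19, 1.33 and 2.75 with TNF against 0.51, 0.14 and 1.00 with TNF+IL1. In each of these 3 genes TNF replicate 2 was the lowest TNF array and still lay above every TNF+IL1 array, and replicate 3 was the highest array of both groups. The mitotic kinase CDK1 read 1.94, 1.11 and 2.33 with TNF against 0.25, 0.16 and 1.01 with TNF+IL1, a difference of -1.32 ± 0.59 (adjusted p = 0.979). The higher member was FOXM1, a factor that drives mitotic genes, at 0.49, 0.52 and 0.37 with TNF against 0.80, 0.88 and 0.89 with TNF+IL1, and the inhibitor CDKN2B was among the lower. With IL1β alone the list's median was -0.28.

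**Figure D4:**
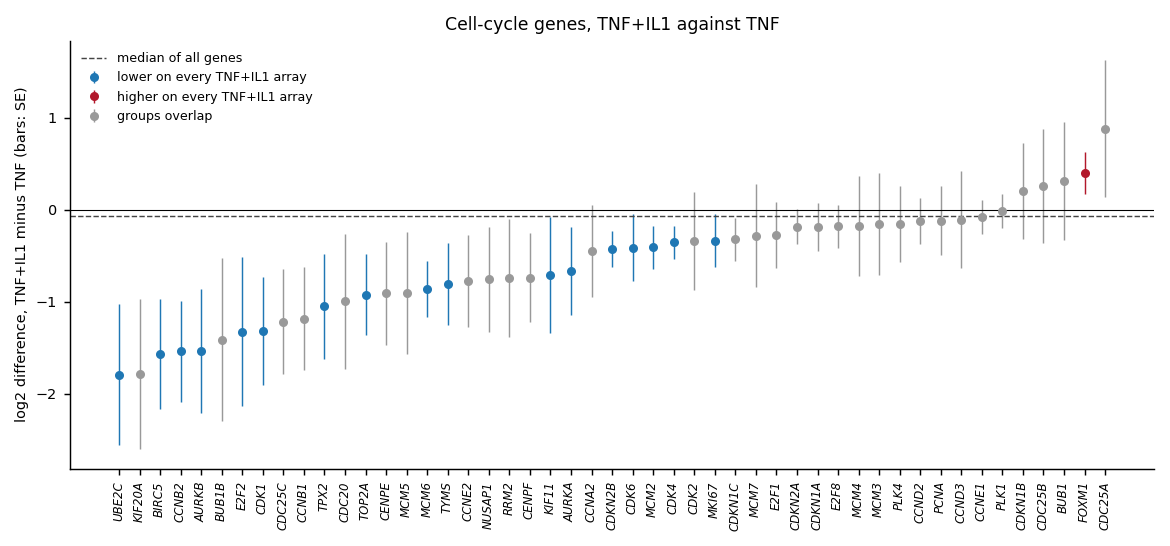
Log2 difference, TNF+IL1 minus TNF, with SE bars, for each measured cell-cycle gene, ordered by size and coloured by whether the groups overlap. The lowest value is UBE2C at -1.80, most genes lie below the median of all genes, and 5 lie above 0.

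Of the 12 lower genes chosen by p, RGCC, a regulator of cell cycle progression, had the largest difference. It read 4.69, 4.49 and 5.66 with TNF and 2.10, 2.85 and 3.02 with TNF+IL1, a difference of -2.29 ± 0.46 (adjusted p = 0.506), and a dim second probe overlapped. ITGA4, the alpha 4 integrin, read 3.07, 2.80 and 2.56 with TNF against 1.58, 1.46 and 1.51 with TNF+IL1, and STMN1, the microtubule regulator stathmin, 6.63, 6.35 and 6.68 with TNF against 5.49, 5.40 and 5.66 with TNF+IL1. A second STMN1 probe gave -1.13 and was also separated, and another gave -0.65 and overlapped. The second ITGA4 probe, a dim one, gave -0.30 and overlapped. KRT18, a keratin whose second probe gave -0.95 and was separated, read 2.96, 3.51 and 2.72 with TNF against 1.63, 2.14 and 2.01 with TNF+IL1. STAP2, a signalling adaptor, read 2.89, 3.07 and 2.21 with TNF and 1.66, 1.66 and 1.75 with TNF+IL1. A further 6 were DCDC2, RGS7, RGS20, ATP8B1, MAMDC2 and HRK, with differences from -1.66 (HRK) to -1.08 (ATP8B1) and adjusted p from 0.506 to 0.917. Second probes of DCDC2 (-0.090) and MAMDC2 (-0.014) overlapped, and that of RGS7 (-0.57) was separated. HRK, a BH3-only protein that promotes cell death, read 1.16, 0.18 and 1.63 with TNF against -1.20, -0.47 and -0.35 with TNF+IL1. Cytoskeletal genes had 0 of 17 higher and 4 lower, a share of 23.5% near the 17.8% of all genes, with cardiac alpha actin ACTC1 at 4.28, 4.90 and 4.79 with TNF against 3.58, 3.90 and 3.55 with TNF+IL1, but their median of -0.18 became 0.064 after quantile normalization.

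**Figure D5:**
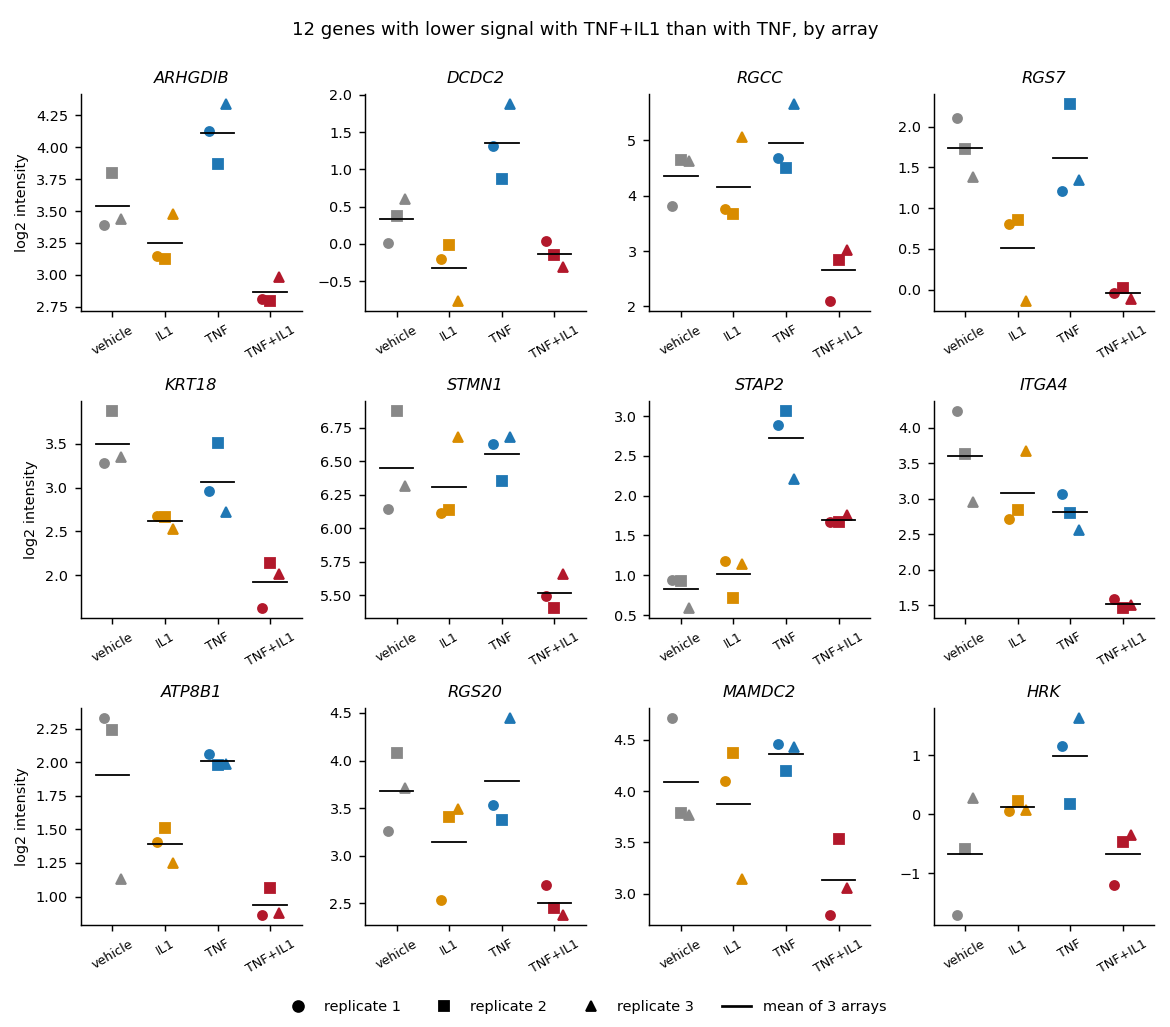
Log2 intensity of the 12 lower genes of lowest p on each of the 12 arrays, drawn as for the higher genes. The 3 TNF+IL1 points lie below the 3 TNF points on all 12; for RGCC the TNF points run from 4.49 to 5.66 and the TNF+IL1 points from 2.10 to 3.02.

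The direction with IL1β alone, in arrays that this comparison does not use, was the same for 67 of the 77 bright higher genes (87.0%) and for 37 of the 47 bright lower genes (78.7%), against 61.3% of all 18106 genes. Without the condition on brightness it was the same for 133 of 209 higher genes (63.6%) and for 154 of 192 lower genes (80.2%). The 61.3% of all genes pools both directions. With TNFα present 7415 of all genes had a positive and 10691 a negative difference, and the median with IL1β alone was -0.15. The pooled share is therefore not a background for either direction taken alone. The 77 and 47 genes were chosen for their difference with TNFα present and for brightness, and all genes include dim ones, so the shares were not tested against each other.

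Genes that TNFα alone moves were read last, and here the 3 TNF arrays are shared, so these comparisons are not independent. TNFα against vehicle called 14 of 18106 genes, 12 higher and 2 lower. Of the 12, HSD11B1, SOD2, BST2 and GBP1P1 were higher again with TNF+IL1, IL32 and STAP2 lower, and CCL5, G0S2, CTSS, ALKAL2, CCL2 and EBI3 overlapped. Among all genes 5.93% were higher and 17.8% lower without overlap. BST2, an antiviral membrane protein, read 2.99, 1.86 and 2.30 with TNF and 3.23, 3.45 and 3.50 with TNF+IL1. On 10 of these 12 genes TNF replicate 2, passage 28, was the lowest TNF array, and on 2 of 12 was TNF+IL1 replicate 2 the lowest of its group. For EBI3, a subunit of IL27 and IL35, the values were 3.77, 3.14 and 3.44 with TNF and 3.53, 2.98 and 3.07 with TNF+IL1. The 2 genes lower with TNFα, MEST, which is imprinted, and CRABP2, which carries retinoic acid, gave further differences of -0.65 and -0.51 with overlap. The reference genes ACTB and GAPDH differed by 0.073 and -0.28; GAPDH was lower without overlap as deposited, and 0.057 higher after quantile normalization.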

How the data were processed

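The comparison, its gene lists and the genes always named were chosen with earlier results of these data known. The authors deposited linear intensities of a single-colour CodeLink array, 1 culture per array per the labels; how these intensities were made is not given in the sources used here, and array medians near 1 are read from the values. The code -9999 and values at or below 0 were set to missing before log2, and no further scaling was applied. Of 54359 probes, 53671 with at least 2 values in every group were tested with limma 3.58.1 in R 4.3.3 (group means over all 12 arrays, two-sided, Benjamini-Hochberg adjustment over all probes). For 3 arrays against 3, an exact permutation test has a smallest two-sided p of 0.1. Of the probes, 23472 are listed with 1 gene, 905 with several and 29982 with none; 23434 were named by Entrez identifier. A gene was read from its single-gene probe of highest mean, which gave 18106 genes.

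Named genes were those called; because none was, the 12 of lowest p in each direction among separated genes with a difference of at least 1 and a signal above the median probe; up to 2 members of lowest p from each of 33 lists; and a list of genes always given where measured. Not every gene of this rule is printed, MCM6 of the cell-cycle list being an example. Some further list members are printed outside the rule as description. They include UBE2C, BIRC5, CDK1, FOXM1, CDKN2B, TNFAIP2, IL11, CXCL5 and MT1H. BST2, EBI3 and other genes called with TNFα against vehicle are also given outside it. Of 743 listings 652 were measured. Same-numbered TNF and TNF+IL1 arrays share a passage per the labels. Their residuals after group means correlated at -0.014, 0.017 and -0.020 over probes with a value on every array. That does not speak for single genes, and UBE2C, BIRC5 and CCNB2 had the same order of replicates in both groups. The fit has no block, so the SEs do not use this pairing. The fit with passage as a block is given beside the count of calls. Alternatives were quantile normalization, an offset of 0.1, brighter probes, complete probes, 1 probe per gene, a trended robust prior, array quality weights, the 6 arrays alone, the passage block and leaving out each array. Leaving out vehicle replicate 3, TNF replicate 3 and IL1 replicate 2 together, the 3 of highest score on the first principal component, and median centring were chosen after seeing the data. The limma step was tested on simulated data. The values of 1 of the 12 lower genes are not reported here.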

Additional observations from a re-analysis of the deposited data

How the results depend on the processing

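The count of probes called for TNF+IL1 against TNF, 1 in the limma fit as reported, was 2 after quantile normalization, 3 with an offset before the log, 2 with a trended robust prior, 45 with array quality weights and 3 with median centring on the genes. It was 0 in the 6 arrays alone (5497 probes at an unadjusted p under 0.05), 0 with the replicate block (2592), 0 with the replicate block in the 6 arrays alone (3879), and 0 to 0 over the leave-one-out fits of the 6 arrays. Same-numbered arrays share a passage, and the replicate block moved no named gene past the threshold. Leaving out IL1 replicate 1, which enters only through the shared spread, gave 3 probes, and leaving out any other vehicle or IL1 array gave 0. Without vehicle replicate 3, TNF replicate 3 and IL1 replicate 2 together 1 probe passed, lower and not the one reported. The difference between the changes with and without TNFα had 0 calls under every setting run with all 12 arrays (443 to 3655 probes at an unadjusted p under 0.05), and 0 to 1 over the leave-one-out fits, the 1 being without TNF replicate 2. Genes lower without overlap numbered 3127 as deposited and 1833 after quantile normalization. DCLK3 passed under 7 settings with all 12 arrays (adjusted p 0.0070 to 0.047) and GNA15 under 3, and both also passed without IL1 replicate 1. Signs turned for GAPDH to 0.057 and CCL2 to 0.054 after quantile normalization, ACTB to -0.00012 with array quality weights, and without those 3 arrays TNFRSF1A to -0.091, IL1R2 to 0.019 and CCL2 to 0.014. Over the leave-one-out fits TNFRSF1A ran from -0.091 to 0.70, IL1R2 from -0.25 to 0.019, CCL2 from -0.38 to 0.065, ACTB from -0.018 to 0.20 and MMP1 from -0.33 to 0.45. The cause of these shifts was not tested. The files used carry no background flags, so values below the median probe may hold little signal.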
